A study of Mus musculus with 8 samples.

Results

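Expressed solute carrier genes were compared between cells of the mouse mammary carcinoma line 4T1 with and without SCA1 on their surface. Members were the protein-coding genes with a mouse symbol of the form Slc, number, a, number, or the matching Slco form, and a mean normalized count of at least 50 over the 8 libraries, without Slc7a11, Slc3a2, Slc14a1, Slc40a1, Slc11a2 and Slc2a1. Of 269 such symbols in the count table, 151 reached that mean, 5 of the 6 left out by name were among these, and 146 genes were members. All 146 were among the 11717 genes tested, out of 16341 genes counted. Members were thus chosen by their mean normalized count over all 8 libraries, so the level itself is a description. The rule has no threshold on the difference between the fractions, but it was set, and the 6 genes were left out, with earlier results of these data known. Of the 6 genes left out by name, 4 were themselves higher in 4T1-Sca1+ cells, with log2 fold changes from 0.48 (Slc2a1) to 3.61 (Slc14a1), 1 was lower (Slc11a2, -0.27) and 1 was not called, and the counts below leave them out. Just inside the minimum was Slc37a1, with a mean of 57.4, and just outside were Slc25a47 at 45.3, Slc7a4 at 44 and Slc26a9 at 41.2. Only Slc25a23 and Slc4a3 passed through a single group, with means under 50 in 4T1-Sca1- cells.

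SCA1 is the product of Ly6a, and after staining for it the cells were separated on magnetic columns, and RNA was sequenced from 4 libraries of 4T1-Sca1+ and 4 libraries of 4T1-Sca1- cells. The labels name no treatment and no engineered allele for either fraction, and give a CD45-negative gate, which removes leukocytes, for both. The source label names the parental line, but the extraction protocol mentions tumor, and the labels do not tell whether the 4 replicates of a group were separate cultures, animals or sorts. The comparison asks which transcripts differ between the fractions, and its p-values measure only the spread between these libraries, which may be technical.

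Solute carriers are membrane proteins that move amino acids, sugars, metabolites, ions and metals across the plasma membrane and the membranes of organelles, most of them driven by gradients of the substrate or of sodium, protons or an exchanged solute rather than by ATP. The mitochondrial carriers form the largest family and pass nucleotides, phosphate and metabolites across the inner mitochondrial membrane. In mammary carcinoma cells these proteins are known for the supply of amino acids, the export of lactate and the handling of zinc and phosphate.

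A library held 15041995 to 16968215 counts for 4T1-Sca1+ and 13561804 to 16142836 for 4T1-Sca1-. The normalized count of Ly6a was 167 ± 20.2 against 1.79 ± 1.73 (SD, n = 4, as for all values below). The 8 epithelial markers summed to 58605 to 64255 normalized counts per 4T1-Sca1+ library and 60216 to 64984 per 4T1-Sca1- library, with Krt8 and Krt18 higher and Krt7, Cdh1 and Cldn4 lower in 4T1-Sca1+ cells. Of 10 leukocyte markers 7 were counted, 5 of them with at most 10 counts in any library, and their sum was 245 to 299.8 against 155 to 183, with Cd68 and S100a8 higher in 4T1-Sca1+. Fibroblast markers, 5 of 7 counted, summed to 603 to 647 against 372 to 438, with Col1a1 and Pdgfra higher. The 3 endothelial markers counted stayed at or below 10 counts in every library and no erythroid marker was counted. The part of these low signals in the differences given here was not tested. Replicate 3 of 4T1-Sca1+ stood apart, with a chi-square per degree of freedom of 7.02 to 10.1 against the other 3 libraries of its group, where the other 9 pairs within a group had 1.92 to 5.68. It held the highest 4T1-Sca1+ value in 36 of the 60 members that were higher in 4T1-Sca1+, and in 53.0% of all tested genes that were higher. It also held the highest value in 9 of the 10 highest called members without overlap, a share not taken for the highest of all tested genes.

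More solute carriers had higher than lower transcript levels in the SCA1-positive fraction. At an adjusted p under 0.05 (edgeR's quasi-likelihood test, Benjamini-Hochberg adjustment over all tested genes), 60 of the 146 members were higher in 4T1-Sca1+, 28 were lower and 58 were not called. In bulk RNA, fewer cells of a type and less RNA per cell cannot be told apart. The 88 called members were 60.3% of the members, where 61.5% of all tested genes were called, so the share called was close to the background. The higher members were 41.1% of the list and the lower ones 19.2%, against 31.3% and 30.2% of all tested genes. The shares over all tested genes are also the background for the counts of each group below. The median log2 fold change was 0.06 over the members and 0.01 over all tested genes. Without 4T1-Sca1+ replicate 3, 61 members were higher and 30 lower. Among the 144 members with a mean of at least 50 in both groups, 58 were higher and 28 lower.

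Large differences lay mostly in the higher direction, as they did over all tested genes. Of the members, 22 (15.1%) were higher by at least 1.5-fold and 1 (0.685%) was lower by as much, where 11.7% and 4.08% of all tested genes were. At 2-fold or more, 6 members (4.11%) were higher and 0 were lower, against 5.22% and 0.879% of all tested genes. All tested genes include genes with a mean under 50, which the members do not. Among 10201 tested genes outside the list with a mean of at least 50, 860 were higher and 354 lower by at least 1.5-fold. At 2-fold or more, 306 of these 10201 genes were higher and 63 lower. Without the 2 members that passed through 4T1-Sca1+ alone, 20 members were higher by 1.5-fold and 5 by 2-fold. The 4 normalized counts of one group did not overlap the 4 of the other in 79 members (54.1%), where this held for 54.7% of all tested genes. Reads of the members made up 1.21% to 1.22% of all counts for 4T1-Sca1+ and 1.13% to 1.14% for 4T1-Sca1-. Their levels summed per kilobase overlapped, at 40469.7 to 41684 against 40352 to 41874.

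**Figure D1:**
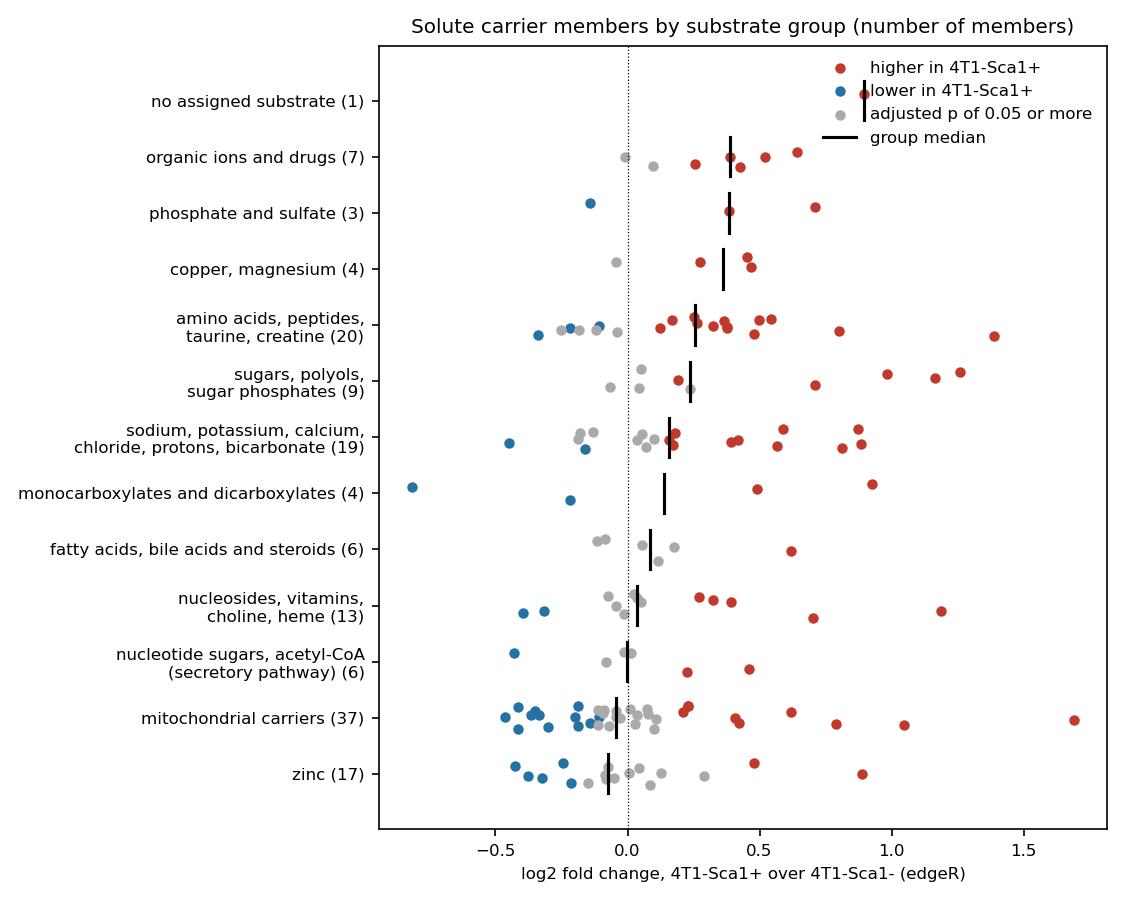
Log2 fold change of each of the 146 members (horizontal axis, 4T1-Sca1+ over 4T1-Sca1-, edgeR) by substrate group, each point 1 gene and each black bar the group's median. Organic ion carriers had a median of 0.39 and amino acid carriers 0.26, whereas mitochondrial carriers had -0.04 and zinc carriers -0.08.

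The genes at the ends of the list were Slc25a23, Slc6a9 and Slc2a8, the 3 highest, and the mitochondrial carriers Slc25a48, Slc25a33 and Slc25a30 among the 10 lowest. Their promoters (250 bases before and 50 after a transcription start, RefSeq on GRCm38.p6, each 5′ to 3′ on the gene's strand) are shown as examples of promoters from the higher and the lower end of the list. They lie at chr17:57059814-57060113 (minus strand), chr4:117835008-117835307 (plus strand), chr2:32982034-32982333 (minus strand), chr13:56438105-56438404 (plus strand), chr4:149774218-149774517 (minus strand) and chr14:75786988-75787287 (minus strand). The table holds 2 starts for Slc25a23 and 3 for Slc6a9, and 1 of them is shown. Capitals mark TGACNNNGC, the core of the antioxidant response element, and CACGTG, the E-box, on either strand.
Slc25a23: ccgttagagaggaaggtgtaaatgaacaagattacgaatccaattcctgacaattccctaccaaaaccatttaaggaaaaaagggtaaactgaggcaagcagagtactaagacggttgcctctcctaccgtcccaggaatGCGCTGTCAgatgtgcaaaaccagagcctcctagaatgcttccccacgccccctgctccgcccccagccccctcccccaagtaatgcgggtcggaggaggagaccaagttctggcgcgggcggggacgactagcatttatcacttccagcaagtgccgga
Slc6a9: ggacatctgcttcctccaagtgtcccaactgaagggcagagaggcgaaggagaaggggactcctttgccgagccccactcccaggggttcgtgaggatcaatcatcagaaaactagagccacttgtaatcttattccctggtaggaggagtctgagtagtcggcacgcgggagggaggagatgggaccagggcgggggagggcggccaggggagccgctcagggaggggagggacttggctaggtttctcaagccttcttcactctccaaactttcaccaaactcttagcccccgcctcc
Slc2a8: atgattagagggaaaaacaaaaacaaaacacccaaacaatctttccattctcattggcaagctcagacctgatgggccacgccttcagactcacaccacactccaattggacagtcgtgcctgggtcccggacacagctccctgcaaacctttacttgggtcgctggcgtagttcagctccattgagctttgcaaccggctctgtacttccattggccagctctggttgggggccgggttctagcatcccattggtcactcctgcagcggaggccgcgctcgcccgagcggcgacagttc
Slc25a48: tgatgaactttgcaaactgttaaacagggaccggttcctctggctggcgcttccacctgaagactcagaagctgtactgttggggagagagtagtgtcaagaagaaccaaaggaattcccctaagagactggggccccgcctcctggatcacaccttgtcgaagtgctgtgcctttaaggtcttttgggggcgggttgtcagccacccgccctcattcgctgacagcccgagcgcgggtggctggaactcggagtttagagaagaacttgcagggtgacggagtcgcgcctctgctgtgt
Slc25a33: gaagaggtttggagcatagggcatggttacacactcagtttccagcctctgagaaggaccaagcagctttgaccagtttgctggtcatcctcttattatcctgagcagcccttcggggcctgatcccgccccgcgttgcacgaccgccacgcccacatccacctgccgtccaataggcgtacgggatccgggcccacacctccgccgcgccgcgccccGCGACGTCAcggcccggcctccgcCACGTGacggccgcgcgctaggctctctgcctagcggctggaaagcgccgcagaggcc
Slc25a30: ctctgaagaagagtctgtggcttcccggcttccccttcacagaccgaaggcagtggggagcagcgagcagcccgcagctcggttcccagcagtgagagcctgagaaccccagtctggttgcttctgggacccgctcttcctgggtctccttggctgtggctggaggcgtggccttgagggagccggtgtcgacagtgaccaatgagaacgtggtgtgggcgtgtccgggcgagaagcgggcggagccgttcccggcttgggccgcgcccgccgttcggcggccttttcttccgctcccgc

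Of the 146 members, 111 had a promoter in the RefSeq table, and 4 short motifs were searched in them on both strands. TGACNNNGC was in 25 of the 111 promoters (22.5%) and in 12.4% of all 32851 promoters of the same length. By direction, it was in 6 of 43 promoters of higher members, in 9 of 20 of lower members and in 10 of 48 of members not called. Shares by direction were not taken over all tested genes, and the 32851 promoters were not limited to tested genes. A link of the motif to direction or to solute carriers was therefore not tested. In Slc25a23 TGACNNNGC began at base 141 of the printed sequence, and in Slc25a33 at base 219, followed by an E-box at base 243. The E-box was in 17 of 111 promoters (15.3%) against 7.15% of all promoters. TGATGNAA, the core of the ATF4 composite site, was in 4 of 111 (3.6%) against 3.97%. TGCACNC or TGCGCNC, the core of the metal response element, was in 40 of 111 (36%) against 25.7%, and no capitals mark it above. These matches are descriptions of the letters in the windows.

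Amino acid carriers were higher more often than lower in 4T1-Sca1+ cells. Of the 20 members that carry amino acids, peptides, taurine or creatine, 13 were higher, 3 lower and 4 not called, with a median log2 fold change of 0.26. Summed per kilobase of exon, their normalized counts were 5668 to 5818 per 4T1-Sca1+ library against 4967 to 5227 per 4T1-Sca1- library, with no overlap. With offsets corrected for GC content and length, 12 were higher and 5 lower and the median was 0.10. All 3 members of the neurotransmitter and osmolyte family Slc6 and 5 of the 6 members of the small neutral amino acid family Slc38 were higher. The call of Slc6a8, named after its values were seen, was lost with GC and length corrected offsets. It was also lost without 4T1-Sca1+ replicate 3 and without 4T1-Sca1- replicate 3 or 4. In the family Slc7, which includes the exchangers of large neutral amino acids, 0 of 4 were higher and 1 was lower, but 3 were lower with GC and length corrected offsets (Slc7a1, Slc7a5 and Slc7a6, the last named after its values were seen), and 0 were lower with the replicate block, with library totals, with at least 10 counts in every library or without 4T1-Sca1- replicate 4. DESeq2 and an unadjusted p under 0.05 in edgeR also gave 0 higher there, as they gave 0 for each direction reported as 0 below, except that 1 member of Slc30 was higher at an unadjusted p under 0.05. Other alternatives did not keep all of these zeros, as given below for Slc30 and for the fatty acid, bile acid and steroid carriers.

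Slc6a9, the sodium-driven glycine transporter (chr4:117834506-117875198, plus strand, GRCm38), was higher in 4T1-Sca1+ cells. Its normalized counts were 898, 874, 997 and 981 in the 4T1-Sca1+ libraries and 331, 372, 383 and 361 in the 4T1-Sca1- libraries. The groups lay far apart, with a 2.62-fold difference (log2 fold change 1.39 ± 0.06, edgeR adjusted p = 7.22e-12; errors of log2 fold changes are SE). Exons of Ccdc24 on the opposite strand cover 1429 bases, or 27.8%, of its exons, and Ccdc24 itself stood at 116 against 45.1 (log2 fold change 1.36), so reads in the shared stretch cannot be told apart.

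Slc43a2, a uniporter of branched-chain and aromatic amino acids, had 744 ± 81.9 against 431 ± 23.5 normalized counts in 4T1-Sca1+ against 4T1-Sca1- cells (log2 fold change 0.80 ± 0.07, edgeR adjusted p = 5.87e-08). Slc16a10, which carries aromatic amino acids, had 116 ± 10 against 80.2 ± 3.74 (log2 fold change 0.54 ± 0.11, edgeR adjusted p = 3.30e-04). Both were higher in all 4 4T1-Sca1+ libraries than in any 4T1-Sca1- library.

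Slc7a5, the light chain of the main exchanger of large neutral amino acids, was the amino acid carrier with the highest level per kilobase of exon (921 normalized counts per kilobase over the 8 libraries) and did not pass the test, with 3351 ± 112 against 3479 ± 119 (log2 fold change -0.04 ± 0.04, edgeR adjusted p = 0.438). With GC and length corrected offsets its log2 fold change was -0.18 and passed the test, and with library totals it was 0.00. Slc7a1, the importer of arginine and lysine, was slightly lower (3663 ± 92.5 against 3977 ± 75.5, log2 fold change -0.11 ± 0.04, edgeR adjusted p = 0.0327), and this call was lost in 7 of 17 alternative fits: with the replicate number as a block (log2 fold change -0.11), with library totals (-0.06), with at least 10 counts in every library (-0.09) and without 4T1-Sca1+ replicate 1 or 2 or 4T1-Sca1- replicate 2 or 4 (-0.11 to -0.09). Slc15a4, a lysosomal exporter of histidine and peptides, was lower (416 ± 20.9 against 488 ± 28.7, log2 fold change -0.22 ± 0.06, edgeR adjusted p = 0.00741).

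**Figure D2:**
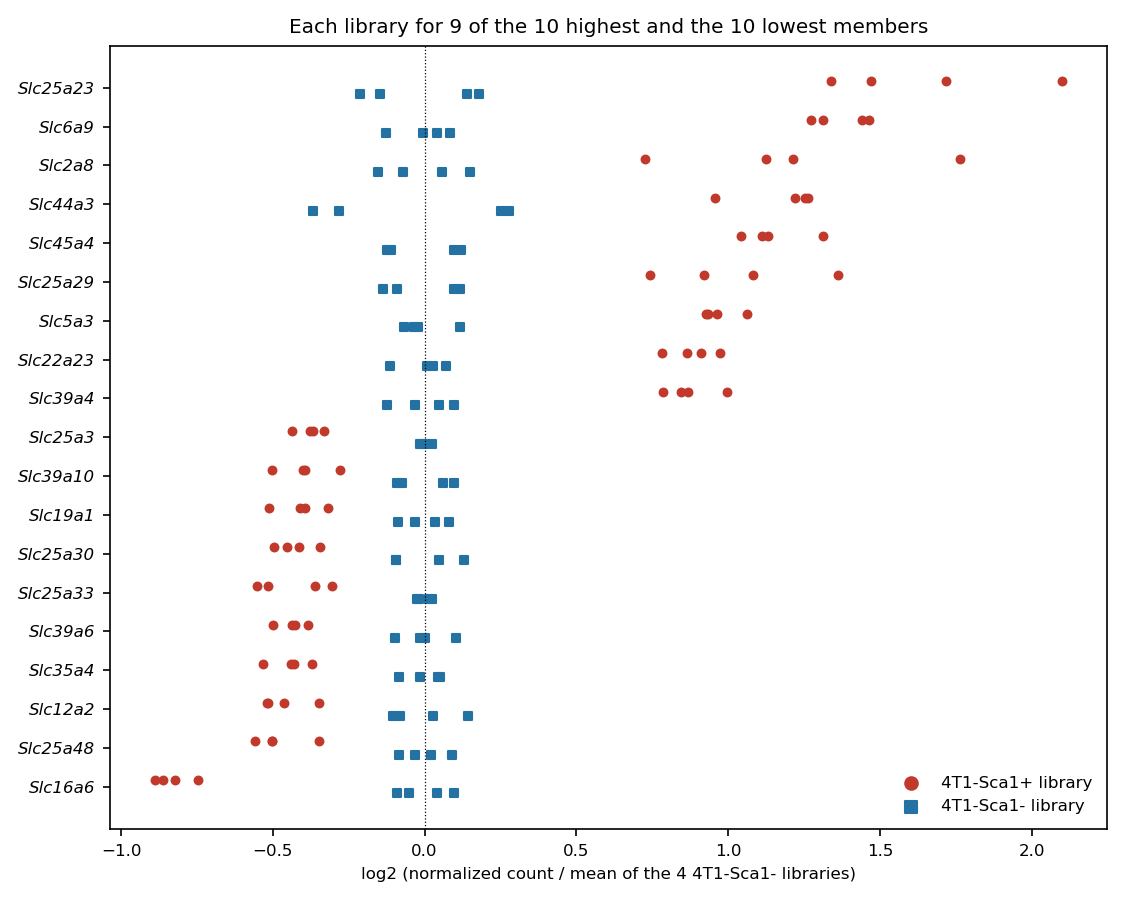
Log2 of the normalized count of each library divided by the mean of the 4 4T1-Sca1- libraries (horizontal axis), for 9 of the 10 highest and the 10 lowest called members without overlap. Circles are 4T1-Sca1+ and squares 4T1-Sca1- libraries, and the circles of Slc25a23, Slc2a8 and Slc25a29 spread most, with replicate 3 the highest in each.

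Carriers of sugars, polyols and sugar phosphates held 4 of the 22 members that were higher by at least 1.5-fold. Of their 9 members, 5 were higher, 0 were lower and 4 were not called, with a median log2 fold change of 0.24, which ranged from 0.17 without 4T1-Sca1- replicate 1 to 0.38 without 4T1-Sca1- replicate 2. Their levels summed per kilobase to 887 to 962 per 4T1-Sca1+ library against 699 to 743 per 4T1-Sca1- library.

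Slc2a8, an intracellular member of the glucose transporter family (chr2:32972990-32982083, minus strand), had 85, 119, 175 and 112 in the 4T1-Sca1+ libraries and 53.5, 46.2, 49 and 57.1 in the 4T1-Sca1- libraries. All 4T1-Sca1+ values were above the 4T1-Sca1- values, but they spread from 85 in replicate 1 to 175 in replicate 3 (log2 fold change 1.26 ± 0.19, edgeR adjusted p = 1.54e-05). Without replicate 3 its log2 fold change was 1.04, and with GC and length corrected offsets 0.85, and both passed the test.

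Slc45a4, of the proton-coupled sugar transporter family (chr15:73577424-73645762, minus strand), had 719, 729, 827 and 686 in the 4T1-Sca1+ libraries and 306, 361, 308 and 356 in the 4T1-Sca1- libraries, a 2.24-fold difference (log2 fold change 1.17 ± 0.07, edgeR adjusted p = 4.22e-10). Slc5a3, the sodium-driven importer of the osmolyte myo-inositol (chr16:92058322-92087473, plus strand), had 1319, 1441, 1347 and 1312 in the 4T1-Sca1+ libraries and 749, 681, 673 and 659 in the 4T1-Sca1- libraries. The 2 ranges of Slc5a3 were tight and far apart (log2 fold change 0.98 ± 0.05, edgeR adjusted p = 8.11e-11). It shares 159 exon bases with Mrps6 on the same strand, which stood at 947 against 845.

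Slc50a1, the sugar uniporter with the highest level per kilobase in the group (311), differed little (484 ± 31.6 against 428 ± 32, log2 fold change 0.19 ± 0.07, edgeR adjusted p = 0.0227). Its call was lost with DESeq2 and without 4T1-Sca1+ replicate 2, 4T1-Sca1- replicate 1 or 4T1-Sca1- replicate 2, where the log2 fold change was 0.18, 0.16, 0.14 and 0.17.

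The 4 carriers of monocarboxylates split evenly, with 2 higher and 2 lower in 4T1-Sca1+ cells. Slc16a13 was one of the higher members (1148 ± 50.7 against 825 ± 33, log2 fold change 0.49 ± 0.05, edgeR adjusted p = 3.05e-07).

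Slc16a6 (chr11:109450855-109473598, minus strand) had the largest drop of all members and was the only member lower by at least 1.5-fold. It had 151, 143, 137 and 139 in the 4T1-Sca1+ libraries and 270.3, 237, 244 and 260.2 in the 4T1-Sca1- libraries, so that every 4T1-Sca1+ library was below every 4T1-Sca1- library (log2 fold change -0.82 ± 0.08, edgeR adjusted p = 1.81e-07). Its exons share 1052 bases, or 21.5%, with Amz2 on the opposite strand, which was higher in 4T1-Sca1+ (621 against 454, log2 fold change 0.46). Slc16a6 and Slc25a23 are also among the signature genes that the study chose on these libraries, which is not independent evidence of their direction.

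Slc16a1, the lactate and pyruvate transporter, was the most abundant of the 4 per kilobase (761) and was lower in 4T1-Sca1+ cells (3101 ± 38.1 against 3635 ± 103, log2 fold change -0.22 ± 0.04, edgeR adjusted p = 2.28e-04). With GC and length corrected offsets its log2 fold change was -0.04 and was not called. Bsg, which encodes basigin, the chaperone that brings the lactate transporter to the surface, is no member and was lower too (6684 ± 368 against 9208 ± 276, log2 fold change -0.45 ± 0.05, edgeR adjusted p = 1.72e-07).

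Mitochondrial carriers, the largest family, moved in both directions. Of 37 members of Slc25, 9 were higher, 12 lower and 16 not called, and the median log2 fold change was -0.04 (-0.08 without 4T1-Sca1- replicate 2, 0.00 with library totals). By share, 24.3% were higher and 32.4% lower, against 31.3% and 30.2% of all tested genes, and 56.8% were called, against 61.5%. The levels of the 37 members summed per kilobase were lower in 4T1-Sca1+ libraries, 17357 to 17908 against 18910 to 19511, and did not overlap. Slc25a4 alone had a mean of 4859 per kilobase, so the sum mostly follows the most abundant carriers and does not show a fall across the family. The 109 members outside this family were 51 higher and 16 lower, with a median of 0.12.

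Slc25a23, a calcium-regulated exchanger of ATP-magnesium for phosphate (chr17:57043711-57059863, minus strand), had the highest log2 fold change of all members. Its normalized counts were 89.6, 116, 152 and 98 in the 4T1-Sca1+ libraries and 30.6, 39, 40.1 and 32 in the 4T1-Sca1- libraries, with replicate 3 again the highest (log2 fold change 1.69 ± 0.18, edgeR adjusted p = 3.03e-07), and without replicate 3 the log2 fold change was 1.52. It entered the list through the 4T1-Sca1+ libraries alone, so its place among the members goes with its difference. Slc25a29, which imports basic amino acids (chr12:108825873-108835883, minus strand), had 202, 226, 274 and 179 in the 4T1-Sca1+ libraries and 116, 114, 100.2 and 97 in the 4T1-Sca1- libraries (log2 fold change 1.05 ± 0.12, edgeR adjusted p = 1.21e-06). Slc25a27, a member of the uncoupling protein branch, was higher as well (98.4 ± 6.30 against 58 ± 16, log2 fold change 0.79 ± 0.15, edgeR adjusted p = 2.47e-04).

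The lower mitochondrial carriers fell by smaller steps. Slc25a48, a carrier linked to mitochondrial choline uptake (chr13:56438355-56474239, plus strand), had 302, 289.9, 336 and 302 in the 4T1-Sca1+ libraries and 418, 433, 455 and 403 in the 4T1-Sca1- libraries, 1.38-fold lower in 4T1-Sca1+ cells (log2 fold change -0.46 ± 0.07, edgeR adjusted p = 1.47e-05). Slc25a33, a carrier of pyrimidine nucleotides (chr4:149744036-149774277, minus strand), had 263, 222, 253 and 228 in the 4T1-Sca1+ libraries and 319.9, 321, 331 and 329 in the 4T1-Sca1- libraries (log2 fold change -0.42 ± 0.07, edgeR adjusted p = 1.04e-04). Slc25a30, another relative of the uncoupling proteins (chr14:75760117-75787037, minus strand), had 451, 418, 429.9 and 405 in the 4T1-Sca1+ libraries and 591, 625, 535 and 536 in the 4T1-Sca1- libraries (log2 fold change -0.41 ± 0.07, edgeR adjusted p = 3.16e-05). In none of these did the groups overlap.

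Slc25a3, the phosphate carrier that feeds ATP synthesis (chr10:91116574-91124059, minus strand), was among the most abundant members and had 10227, 9919, 9987 and 9517 in the 4T1-Sca1+ libraries and 13108, 12866, 12753 and 12780 in the 4T1-Sca1- libraries (log2 fold change -0.36 ± 0.04, edgeR adjusted p = 4.26e-07). Its 8 values formed 2 narrow bands. Slc25a4, the ADP/ATP exchanger with the highest level per kilobase of all members (4859), was lower by less (10954 ± 135 against 11911 ± 384, log2 fold change -0.11 ± 0.04, edgeR adjusted p = 0.0254), and this call was lost in 6 of 17 alternative fits: with the replicate block (-0.11), with library totals (-0.06), with GC and length corrected offsets (-0.07) and without 4T1-Sca1+ replicate 2 or 4T1-Sca1- replicate 2 or 3 (-0.10 in each).

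**Figure D3:**
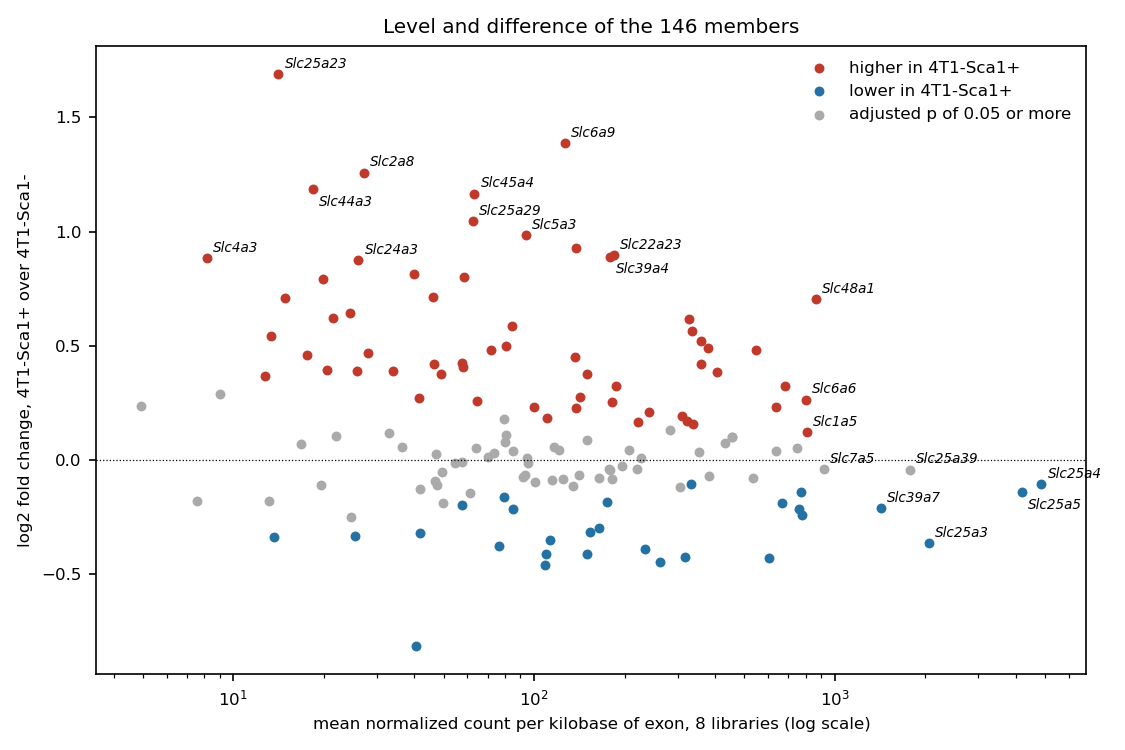
Mean normalized count per kilobase of exon over the 8 libraries (horizontal axis, log scale) against the log2 fold change of 4T1-Sca1+ over 4T1-Sca1- (vertical axis), 1 point per member. The 6 members past a log2 fold change of 1 had levels from 14.1 (Slc25a23) to 126 (Slc6a9) per kilobase, and the member with the highest level, Slc25a4, had a log2 fold change of -0.11.

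Fewer zinc carriers were higher than lower in 4T1-Sca1+ cells. Of 17 members, 2 were higher, 5 lower and 10 not called, with a median log2 fold change of -0.08 (-0.04 without 4T1-Sca1+ replicate 3). Of the 11 members of Slc39, which bring zinc into the cytosol, 2 were higher and 4 lower, and of the 6 members of Slc30, which take it out, 0 were higher and 1 was lower. These counts depended on the libraries and the offsets: without 4T1-Sca1+ replicate 3 there were 4 higher and 6 lower, and with GC and length corrected offsets 5 higher and 7 lower. The 0 higher of Slc30 did not hold for Slc30a4, which was named after its values were seen. It was called higher with GC and length corrected offsets, with library totals and with at least 10 counts in every library. The same held without 4T1-Sca1+ replicate 3 or 4T1-Sca1- replicate 1. Summed per kilobase, the group stood at 4248 to 4377 in 4T1-Sca1+ and 4620 to 4776 in 4T1-Sca1- libraries.

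Slc39a4, an importer of zinc at the plasma membrane (chr15:76612383-76617384, minus strand), was the highest of its family, with 715, 703, 781 and 674 in the 4T1-Sca1+ libraries and 359, 405, 383 and 419 in the 4T1-Sca1- libraries. The groups did not overlap and differed 1.85-fold (log2 fold change 0.89 ± 0.07, edgeR adjusted p = 3.20e-09). Slc39a3, another plasma membrane importer, was higher (334 ± 52 against 241 ± 20, log2 fold change 0.48 ± 0.10, edgeR adjusted p = 3.99e-04), with a log2 fold change of 0.19 after GC and length correction.

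Slc39a6 and Slc39a10, close relatives that form a complex at the plasma membrane, were both lower. Slc39a6 had 1110, 1141, 1100 and 1054 in the 4T1-Sca1+ libraries and 1602, 1493, 1474 and 1393 in the 4T1-Sca1- libraries (log2 fold change -0.43 ± 0.05, edgeR adjusted p = 1.51e-06). Slc39a10 (chr1:46807544-46892852, minus strand) had 435, 402, 373 and 400.0 in the 4T1-Sca1+ libraries and 564, 496, 502 and 550.2 in the 4T1-Sca1- libraries (log2 fold change -0.38 ± 0.07, edgeR adjusted p = 1.11e-04), and its log2 fold change was -0.22 after GC and length correction. Neither gene's groups overlapped.

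Slc39a7, which releases zinc from the endoplasmic reticulum, was the zinc carrier with the highest level per kilobase (1425) and was lower (3395 ± 87.1 against 3970 ± 95.1, log2 fold change -0.21 ± 0.04, edgeR adjusted p = 2.61e-04), with a log2 fold change of -0.41 under GC and length corrected offsets. Slc30a1, the exporter at the plasma membrane, was lower (194 ± 6.57 against 245 ± 17.7, log2 fold change -0.32 ± 0.08, edgeR adjusted p = 0.00193). Of the metallothioneins, which bind zinc in the cytosol and are no members, Mt1 was higher (1066 ± 87.5 against 809 ± 31.4, log2 fold change 0.41 ± 0.06, edgeR adjusted p = 1.26e-05) and Mt2 was not called (1343 ± 103 against 1283 ± 75.2, log2 fold change 0.08 ± 0.06, edgeR adjusted p = 0.258).

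Copper and magnesium carriers held 3 higher members, 0 lower and 1 not called. Slc31a2, an intracellular relative of the copper importer, was higher (319 ± 11.1 against 235 ± 20.3, log2 fold change 0.45 ± 0.08, edgeR adjusted p = 5.84e-05), as was Slc41a1, a magnesium exporter (759 ± 15.4 against 633 ± 28.2, log2 fold change 0.27 ± 0.05, edgeR adjusted p = 2.49e-04). Slc31a1, the copper importer and the most abundant of the 4 per kilobase (179), had 750.3 ± 62.2 against 781 ± 64.7 (log2 fold change -0.04 ± 0.07, edgeR adjusted p = 0.613), and its sign turned without 4T1-Sca1+ replicate 3 (0.01, not called) and with GC and length corrected offsets (0.12), where it was called higher, so that 4 of the 4 members were.

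Carriers of sodium, potassium, calcium, chloride, protons and bicarbonate counted 10 higher, 2 lower and 7 uncalled members of 19, with a median log2 fold change of 0.16. With GC and length corrected offsets 7 were higher and 5 lower and the median was -0.04. Without 4T1-Sca1+ replicate 3, 10 were higher and 1 lower.

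The chloride cotransporters of Slc12 were split. Slc12a2, which brings sodium, potassium and chloride into the cell, had 2596, 2397, 2304 and 2310 in the 4T1-Sca1+ libraries and 3650, 3072, 3124 and 3370 in the 4T1-Sca1- libraries (log2 fold change -0.45 ± 0.06, edgeR adjusted p = 3.32e-06). Every 4T1-Sca1+ value was below every 4T1-Sca1- value. Slc12a5, a potassium and chloride exporter best known from neurons, was higher (376 ± 63.8 against 216 ± 18.8, log2 fold change 0.81 ± 0.11, edgeR adjusted p = 3.47e-06), with 460 in replicate 3. Slc12a4, the most abundant exporter of this kind per kilobase among the group's members (455), was not called (2007 ± 80 against 1888 ± 76.7, log2 fold change 0.10 ± 0.05, edgeR adjusted p = 0.0698), and its log2 fold change was -0.08 with GC and length corrected offsets, 0.14 with library totals, 0.11 with at least 10 counts in every library and 0.12 without 4T1-Sca1- replicate 2, past the threshold in each.

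Slc24a3, an exchanger of sodium for calcium and potassium, was higher in 4T1-Sca1+ cells (153 ± 7.22 against 84.5 ± 9.26, log2 fold change 0.87 ± 0.10, edgeR adjusted p = 1.29e-06). Slc4a3, an exchanger of chloride for bicarbonate, was higher too (90.9 ± 16.8 against 49.5 ± 9.86, log2 fold change 0.88 ± 0.16, edgeR adjusted p = 1.32e-04), with 116 in replicate 3 against 78.9 to 84.9 in the other 3, and it passed the minimum through 4T1-Sca1+ alone. Its log2 fold change was 0.75 without replicate 3 and 0.52 after GC and length correction.

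Both sodium-phosphate cotransporters and the sulfate carrier of the group were called. Slc20a2 was higher (2846 ± 64.5 against 2202 ± 79.7, log2 fold change 0.38 ± 0.04, edgeR adjusted p = 7.93e-07), whereas its relative Slc20a1, the more abundant per kilobase (769 against 406), was lower (4063 ± 272 against 4519 ± 47.8, log2 fold change -0.14 ± 0.05, edgeR adjusted p = 0.0189). The call of Slc20a1 was lost with library totals (-0.10) and without 4T1-Sca1+ replicate 4 (-0.13), and its log2 fold change was -0.08 after GC and length correction. Slc26a2, which imports sulfate, was higher (227 ± 14.9 against 139.7 ± 16.8, log2 fold change 0.71 ± 0.10, edgeR adjusted p = 5.19e-06).

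Among the 13 carriers of nucleosides, vitamins, choline and heme, 5 were higher, 2 lower and 6 not called, with a median log2 fold change of 0.04, which ranged from 0.01 without 4T1-Sca1- replicate 1 to 0.07 without 4T1-Sca1- replicate 2. Slc44a3, of the choline transporter-like family (chr3:121459528-121532404, minus strand), had 133, 110.4, 137 and 136 in the 4T1-Sca1+ libraries and 67.8, 44.1, 69 and 46.8 in the 4T1-Sca1- libraries (log2 fold change 1.19 ± 0.14, edgeR adjusted p = 1.45e-06). The 4T1-Sca1- values lay in a lower and a higher pair, and all were below the 4T1-Sca1+ values. Slc48a1, which moves heme out of endosomes and lysosomes and had the highest level per kilobase of the group (866), was higher (2941 ± 109 against 1823 ± 84.7, log2 fold change 0.70 ± 0.05, edgeR adjusted p = 9.56e-10).

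The 2 folate importers moved in opposite directions. Slc19a1, the reduced folate carrier (chr10:77032241-77061002, plus strand), had 989.8, 929, 941 and 866 in the 4T1-Sca1+ libraries and 1161, 1208, 1306 and 1266 in the 4T1-Sca1- libraries (log2 fold change -0.39 ± 0.06, edgeR adjusted p = 7.95e-06). Slc46a1, the proton-coupled folate transporter, was higher at a lower level (118 ± 12.9 against 90.9 ± 6.69, log2 fold change 0.39 ± 0.11, edgeR adjusted p = 0.00604). Slc29a2, an equilibrative nucleoside transporter, was lower (409 ± 26.2 against 514 ± 20.1, log2 fold change -0.32 ± 0.06, edgeR adjusted p = 3.41e-04).

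Organic ion and drug carriers were 5 higher, 0 lower and 2 not called of 7, with a median log2 fold change of 0.39. Slc22a15 (423 ± 28.4 against 274 ± 27.9, log2 fold change 0.64 ± 0.08, edgeR adjusted p = 2.15e-06) and Slco4a1, a carrier of organic anions and thyroid hormone (2014 ± 72 against 1418 ± 56.7, log2 fold change 0.52 ± 0.05, edgeR adjusted p = 4.81e-08), were higher without overlap. Slc17a5, the lysosomal exporter of sialic acid, was higher (238 ± 20.4 against 179 ± 10.6, log2 fold change 0.43 ± 0.09, edgeR adjusted p = 3.55e-04). Slco2a1, the prostaglandin transporter and the most abundant of these per kilobase (454), was at 6327 ± 119 against 5968 ± 252 and was not called (log2 fold change 0.10 ± 0.04, edgeR adjusted p = 0.0561), but it passed under 4 alternatives, with log2 fold changes of 0.10 to 0.14. The neighbours Slc22a4, Slc22a5 and Slc22a21 are similar in sequence, so the split of reads among them is uncertain.

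Slc22a23, an orphan member of the same family for which no substrate is assigned here (chr13:34179158-34345182, minus strand), had 1425, 1506, 1624 and 1556 in the 4T1-Sca1+ libraries and 833, 869.6, 766 and 844 in the 4T1-Sca1- libraries. Its groups were 1.86-fold apart with little spread (log2 fold change 0.90 ± 0.05, edgeR adjusted p = 2.51e-10).

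The 6 fatty acid, bile acid and steroid carriers held 1 higher member and 5 not called. Slc27a1, a fatty acid transport protein, was that member (2311 ± 227 against 1519 ± 129, log2 fold change 0.62 ± 0.07, edgeR adjusted p = 4.31e-07), with a log2 fold change of 0.33 after GC and length correction. In this group 1 was higher and 1 lower with GC and length corrected offsets, and likewise without 4T1-Sca1+ replicate 3. With library totals 2 were higher and 0 lower. Carriers of nucleotide sugars and acetyl-CoA in the secretory pathway counted 2 higher, 1 lower and 3 not called of 6. Slc35a4, the lower one and the most abundant per kilobase (603), had 1571, 1688, 1759 and 1677 in the 4T1-Sca1+ libraries and 2145, 2347, 2250 and 2357 in the 4T1-Sca1- libraries (log2 fold change -0.43 ± 0.05, edgeR adjusted p = 6.81e-07). Slc33a1, which brings acetyl-CoA into the endoplasmic reticulum, was higher (523 ± 18.2 against 452 ± 39.7, log2 fold change 0.22 ± 0.07, edgeR adjusted p = 0.00782), with a log2 fold change of 0.35 under GC and length corrected offsets.

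**Figure D4:**
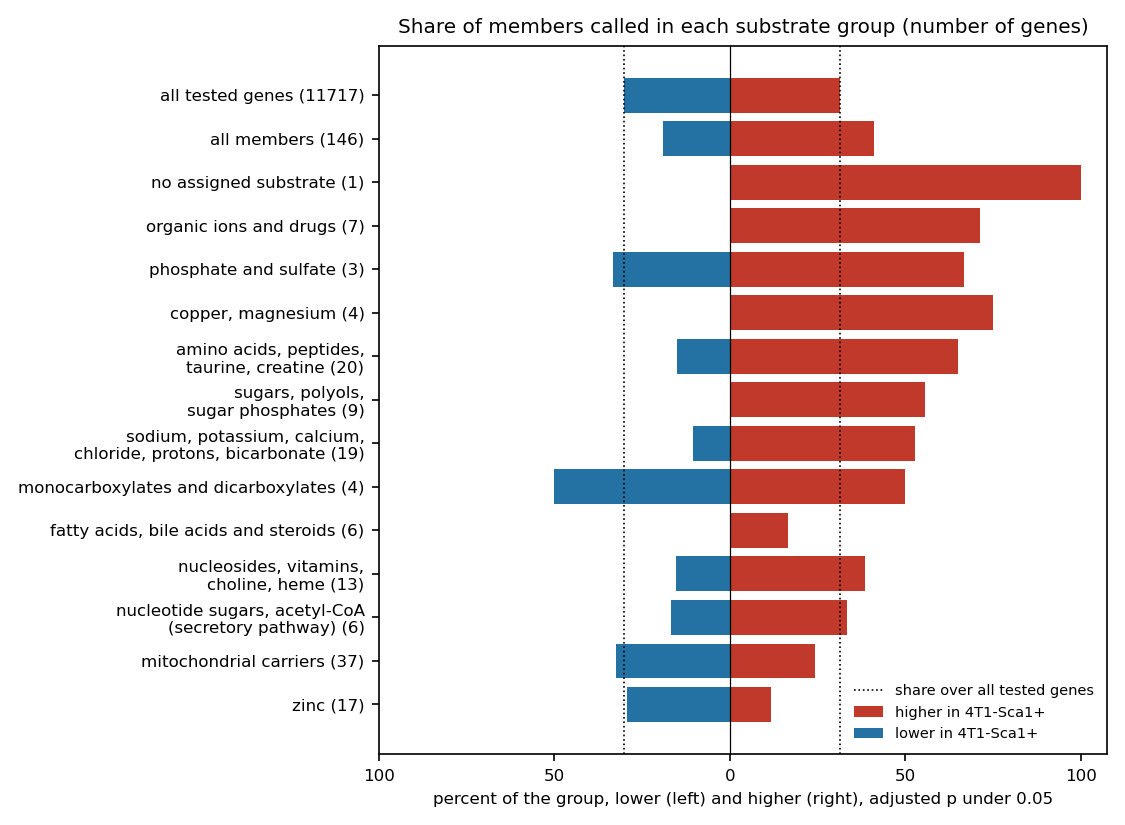
Percent of the genes in each substrate group that were higher (right) or lower (left) in 4T1-Sca1+ at an adjusted p under 0.05, with the number of genes in brackets and dotted lines at the shares over all tested genes, 31.3% and 30.2%. Amino acid carriers had 65.0% higher and 15.0% lower, mitochondrial carriers 24.3% and 32.4%, and zinc carriers 11.8% and 29.4%.

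Related carriers that moved apart were also compared within each library, where scaling cancels. The pairs were chosen after their values were seen, so the ratios are a description, not corrected for gene length. In each pair the first gene was higher and the second lower without overlap, so the ratios could not overlap either. Slc20a2 over Slc20a1 was 0.642 to 0.780 per 4T1-Sca1+ library against 0.475 to 0.510 per 4T1-Sca1- library. For the zinc importers, Slc39a4 over Slc39a6 was 0.616 to 0.710 against 0.224 to 0.301. These 2 ratios did not overlap between the fractions. For the folate importers, Slc46a1 over Slc19a1 was 0.107 to 0.148 against 0.0640 to 0.0806, again without overlap.

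**Figure D5:**
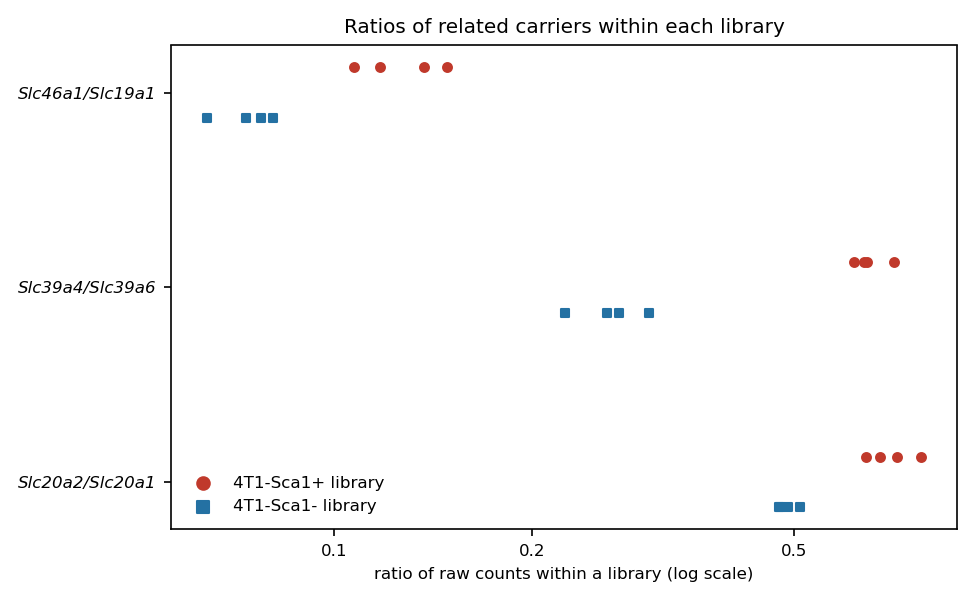
Ratio of the raw counts of 2 related carriers within each library (horizontal axis, log scale), with circles for 4T1-Sca1+ and squares for 4T1-Sca1- libraries. In all 3 pairs every 4T1-Sca1+ library lay above every 4T1-Sca1- library, which follows from the choice of pairs.

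Solute carriers with the letters b to g in the symbol, which the membership rule did not take, were 5 higher, 3 lower and 10 not called of 18 tested. Of these 18, 27.8% were higher and 16.7% lower, against 31.3% and 30.2% of all tested genes. Slc8b1, the exchanger of sodium, calcium and lithium of mitochondria, was higher (538 ± 39.8 against 398 ± 32.8, log2 fold change 0.45 ± 0.07, edgeR adjusted p = 3.79e-05), and Slc35f1 was lower at few counts (7.45 ± 3.19 against 26.5 ± 7.22, log2 fold change -1.79 ± 0.31, edgeR adjusted p = 8.07e-05). Of 25 related transporters, chaperones and metal buffers 22 were tested, 9 higher and 5 lower. The share called was 63.6%, near the 61.5% of all tested genes. Spns2, the exporter of sphingosine 1-phosphate, was higher (2055 ± 115 against 1339 ± 53.7, log2 fold change 0.63 ± 0.05, edgeR adjusted p = 9.69e-09), and so was Ctns, the lysosomal cystine exporter (269 ± 17.3 against 191 ± 18, log2 fold change 0.51 ± 0.09, edgeR adjusted p = 5.92e-05). Mfsd2a, a lysophosphatidylcholine importer, was lower (276 ± 21.9 against 425 ± 20.5, log2 fold change -0.61 ± 0.07, edgeR adjusted p = 1.15e-06), as was Mcu, the pore of the mitochondrial calcium uniporter (540.4 ± 28.3 against 732 ± 32.5, log2 fold change -0.42 ± 0.06, edgeR adjusted p = 7.14e-06).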

How the data were processed

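Members and gene lists were chosen with earlier results of these data known. Per the labels, total RNA was prepared with an Illumina TruSeq kit, which does not mark strand, and sequenced on a NextSeq instrument. The submitters' processing notes name cutadapt 1.16, STAR 2.5.3a and GRCm38 (mm10). The counting tool and annotation are not given in the sources used here. The authors deposited raw counts for 16341 genes and a normalized signal for 15372 genes. The deposited signal equalled the counts divided by 1 DESeq2 size factor per library, to a relative deviation of at most 5.1e-15. Names, positions, exon length and GC content came from GENCODE M21 on GRCm38 by Ensembl ID (16202 genes matched, 139 not).

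Counts were tested with edgeR 4.0.16 in R 4.3.3 (filterByExpr, TMM, glmQLFit and glmQLFTest, two-sided, no covariate). Benjamini-Hochberg adjustment covered the 11717 genes tested, with calls at an adjusted p under 0.05. Printed levels are normalized counts. Members were assigned to 13 substrate groups by family. Named members were the 3 highest and 3 lowest called members without overlap in each group and the most abundant per kilobase, 52 in all, with all 8 values for the 10 highest and 10 lowest, 1 of which is not reported here. The alternatives were DESeq2 1.42.0 and its size factors, limma 3.58.1 (voom, and log2(normalized count + 1)), no filter, at least 10 counts in every library, library totals, offsets corrected by splines for GC content and length, the replicate number as a block, stricter thresholds, member minimums of 20 and 200, and leaving out each library. A mean of at least 50 in both groups was added after seeing the data. Same-numbered libraries did not deviate together (correlations of -0.15 to 0.10 between group deviations). Libraries held 13561804 to 16968215 counts, and the members with the fewest counts carry the largest counting error.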

Additional observations from a re-analysis of the deposited data

Results flagged for a closer look

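Each group of 4 normalized counts of the 52 named members was checked for a library whose gap to the others exceeded Dixon's critical value, and 4 of 104 checks did, where chance gives about 1 in 20, or 5.2. Slc7a1 in 4T1-Sca1+ replicate 1 was at 3524, below 3699 to 3719 in the other 3 libraries. Slc44a3 in 4T1-Sca1+ replicate 2 was at 110, below 133 to 137. Slc46a1 in 4T1-Sca1- replicate 4 was at 81.0, below 93.4 to 95.7. Slc4a3 in 4T1-Sca1+ replicate 3 was at 116, above 78.9 to 84.9. Without the library in question, Slc44a3, Slc46a1 and Slc4a3 kept their direction and their call, whereas the call of Slc7a1 was lost (log2 fold change -0.09).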

How the results depend on the processing

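Of 884 values of the 52 named members under the alternatives, 852 kept their direction and their side of the threshold, 20 lost the call, 8 gained one and 4 turned sign. The signs that turned were those of uncalled members: Slc7a5 with library totals (0.0022), Slc31a1 with GC and length corrected offsets (0.12) and without 4T1-Sca1+ replicate 3 (0.0069, where leaving out 1 library gave -0.11 to 0.0069), and Slc12a4 with GC and length corrected offsets (-0.083). Leaving out 1 library gave 55 to 63 higher and 26 to 30 lower members and a member median of 0.049 to 0.078, the highest without 4T1-Sca1- replicate 2. That median was 0.11 with library totals, which shifted the median of all tested genes by 0.043, and 0.092 and 0.039 with member minimums of 20 and 200. Requiring 1.5-fold left 22 higher and 1 lower member (1366 and 478 of all tested genes), and 2-fold left 6 and 0 (612 and 103). GC and length corrected offsets gave 58 higher and 36 lower members, 75 of the calls shared, 13 lost and 19 gained, and left the amino acid median at 0.10 and that of the ion group at -0.04. The replicate number as a block gave 60 higher and 26 lower members and took the calls of Slc7a1 and Slc25a4. The causes of these shifts were not tested. The named members whose calls moved had log2 fold changes between -0.22 (Slc16a1) and 0.19 (Slc50a1).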
